A study of Rattus norvegicus with 9 samples.

Results

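A set of 8 genes of the cyclic AMP (cAMP) pathway, measured by 12 probes, was followed in rat cortical neurons as firing returned after a long silence. The genes were Crem, Sik1, Pde4a, Pde4b, Pde4d, Pde10a, Prkar1a and Pkia. All probes whose gene name in the scanner files was one of these, or Snf1lk, the older name of Sik1, were taken, which gave 12 of the 41012 probes on the array. Crem and Prkar1a had 2 probes each, Pde4d had 3, and the other 5 genes had 1 each. No further probe belonged to a member by accession or by an older symbol. The rule reads gene names, not measured values.

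The study compared 3 groups of cultured neurons, with 3 single-colour arrays in each. All cultures came from dissociated cortices of prenatal rats, were between 11 and 15 days old in culture when used, and had spent 48 h in tetrodotoxin (TTX), a blocker of voltage-gated sodium channels that stops action potentials. The TTX group stayed in the toxin, whereas the W15 and W45 groups were collected 15 min and 45 min after 3 washes with medium free of the toxin. The labels give no wash for the TTX group, so return of firing and the change of medium cannot be told apart. Nothing in the labels says that replicates are separate cultures, so the p values measure only the spread between these samples, which may be technical.

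Calcium entry and cAMP both lead to phosphorylation of CREB, a transcription factor that binds the cAMP response element (CRE). Several CREB target genes encode brakes on the same pathway. Crem encodes relatives of CREB, among them the short repressor ICER, which is made from an internal promoter and occupies the same DNA element. Sik1 encodes salt-inducible kinase 1, which phosphorylates the CRTC coactivators of CREB and so keeps them out of the nucleus. The PDE4 enzymes hydrolyse cAMP, PDE10A hydrolyses both cAMP and cGMP and is most abundant in striatal neurons, Prkar1a encodes a regulatory subunit that holds protein kinase A inactive until cAMP binds, and Pkia encodes a small protein inhibitor of its catalytic subunit.

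The windows before and just after annotated start sites are shown for Crem and Sik1, because these genes had the largest fitted differences at 45 min and are known CREB targets. They are RefSeq sequences of the GRCr8 assembly, each from 250 bases before to 50 bases after a start, read in the direction of the gene. Capitals mark each TGACG or CGTCA, the 5-base core of the element on either strand, and the whole palindrome TGACGTCA where both cores overlap.
Crem, chr17:58984547-58984846, plus strand: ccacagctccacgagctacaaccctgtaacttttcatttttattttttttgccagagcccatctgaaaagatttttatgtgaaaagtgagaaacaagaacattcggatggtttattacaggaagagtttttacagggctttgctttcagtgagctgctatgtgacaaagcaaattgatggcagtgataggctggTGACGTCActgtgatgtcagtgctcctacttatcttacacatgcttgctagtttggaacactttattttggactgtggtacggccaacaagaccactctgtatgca
Crem, chr17:58985240-58985539, plus strand: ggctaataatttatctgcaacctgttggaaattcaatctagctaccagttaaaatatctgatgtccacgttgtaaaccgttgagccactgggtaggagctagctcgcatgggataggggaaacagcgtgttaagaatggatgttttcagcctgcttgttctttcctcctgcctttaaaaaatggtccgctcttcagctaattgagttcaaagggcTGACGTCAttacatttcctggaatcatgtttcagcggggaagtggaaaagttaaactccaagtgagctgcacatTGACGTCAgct
Sik1, chr20:9958597-9958896, minus strand: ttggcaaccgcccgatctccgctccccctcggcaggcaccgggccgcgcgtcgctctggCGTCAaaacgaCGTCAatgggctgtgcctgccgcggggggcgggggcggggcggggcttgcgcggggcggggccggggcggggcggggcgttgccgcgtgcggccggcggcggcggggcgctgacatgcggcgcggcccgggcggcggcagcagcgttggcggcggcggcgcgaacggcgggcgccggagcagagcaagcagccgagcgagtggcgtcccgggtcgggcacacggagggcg
The palindrome occurred in 2 of the 3 Crem windows. It lay 56 bases before the start in the window at 58984547, and at 35 bases before and 39 bases after the start in the window at 58985240. Of all 33469 windows in RefSeq's set, 1.83% held the palindrome, and 0.0418% held it 2 or more times. The remaining Crem window, chr17:58933816-58934115, held the core 2 times and no palindrome. The Sik1 window held the core 191 and 180 bases before the start and no palindrome, and 21.2% of all windows held the core at least once. Of the 18 windows of the 7 members that had any, 9 held the core: all 3 of Crem, the 1 of Sik1, 1 of 2 of Pde10a, 2 of 4 of Pde4a and 2 of 5 of Pde4d, but neither of Pde4b nor that of Prkar1a. A match describes these letters only, and which Crem start serves ICER is not marked in the table.

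The probes are 60 bases long, and the first 30 bases of those for Crem and Sik1 are given because the results turn on them.
Crem probe A_44_P149138: ccatatggacttgtagatgggtctcttaac
Crem probe A_44_P372529: gccacaggtgacatgccaacttaccagatc
Sik1 probe A_44_P424723: actatgatgggattgtttcatttctcatgt
Per the files, which use the rn3 build, the first Crem probe lies at chr17:62846921-62846980 and the other at chr17:62841513-62841572, both on the plus strand, and they carry the accessions of different Crem transcripts. The Sik1 probe lies at chr20:10280491-10280550 on the minus strand. No annotation of that build was used, so the exon or untranslated region that each probe reads is not given. The files place the Prkar1a probes on chromosome X of rn3, although RefSeq lists the gene on chromosome 10 of GRCr8, and 2 of the 3 Pde4d probes on an unplaced part of chromosome 18, although the gene is listed on chromosome 2.

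Every value below is the log2 of the processed signal minus the 75th percentile of its array, so that 0 is the brightness of that percentile. All 108 member values stood well above background and none was saturated. Across the arrays 72.4 to 77.9% of probes stood well above background, and arrays of a group correlated at 0.984 to 0.996. All 8 neuron markers examined, such as Tubb3 and Map2, stood well above background on all 9 arrays, as did 5 of 6 astrocyte and 6 of 6 oligodendrocyte lineage markers, so RNA of glial marker genes was present beside that of neuronal ones. No marker of the 9 cell types examined was called in any comparison. In such bulk samples, fewer cells of a type and less RNA per cell cannot be told apart.

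No member probe was called by the adjusted test in any of the 3 comparisons. Limma's two-sided moderated test, with Benjamini-Hochberg adjustment over all 30321 probes kept, called 0 of 12 member probes at 15 min against TTX, where it called 0.0198% of all probes in either direction. It called 0 of 12 at 45 min against TTX, against 0.198% of all probes, and 0 of 12 at 45 against 15 min, against 0.129%. At an unadjusted p under 0.05, 0, 3 and 3 member probes passed in these comparisons, where 3.42%, 6.49% and 6.62% of all probes passed in either direction. All of those that passed were higher at 45 min, a direction in which 3.69% of all probes passed against TTX and 2.76% against 15 min. Over the 12 probes the median log2 fold change was -0.10 at 15 min and 0.15 at 45 min relative to TTX, and 0.18 between the times, beside 0.05, 0.05 and 0.01 for all probes. The probes that passed unadjusted were Crem A_44_P149138 and Sik1 in both comparisons, Pde4d A_43_P11785 against TTX, and Pde4d A_44_P311334 against 15 min.

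**Figure D1:**
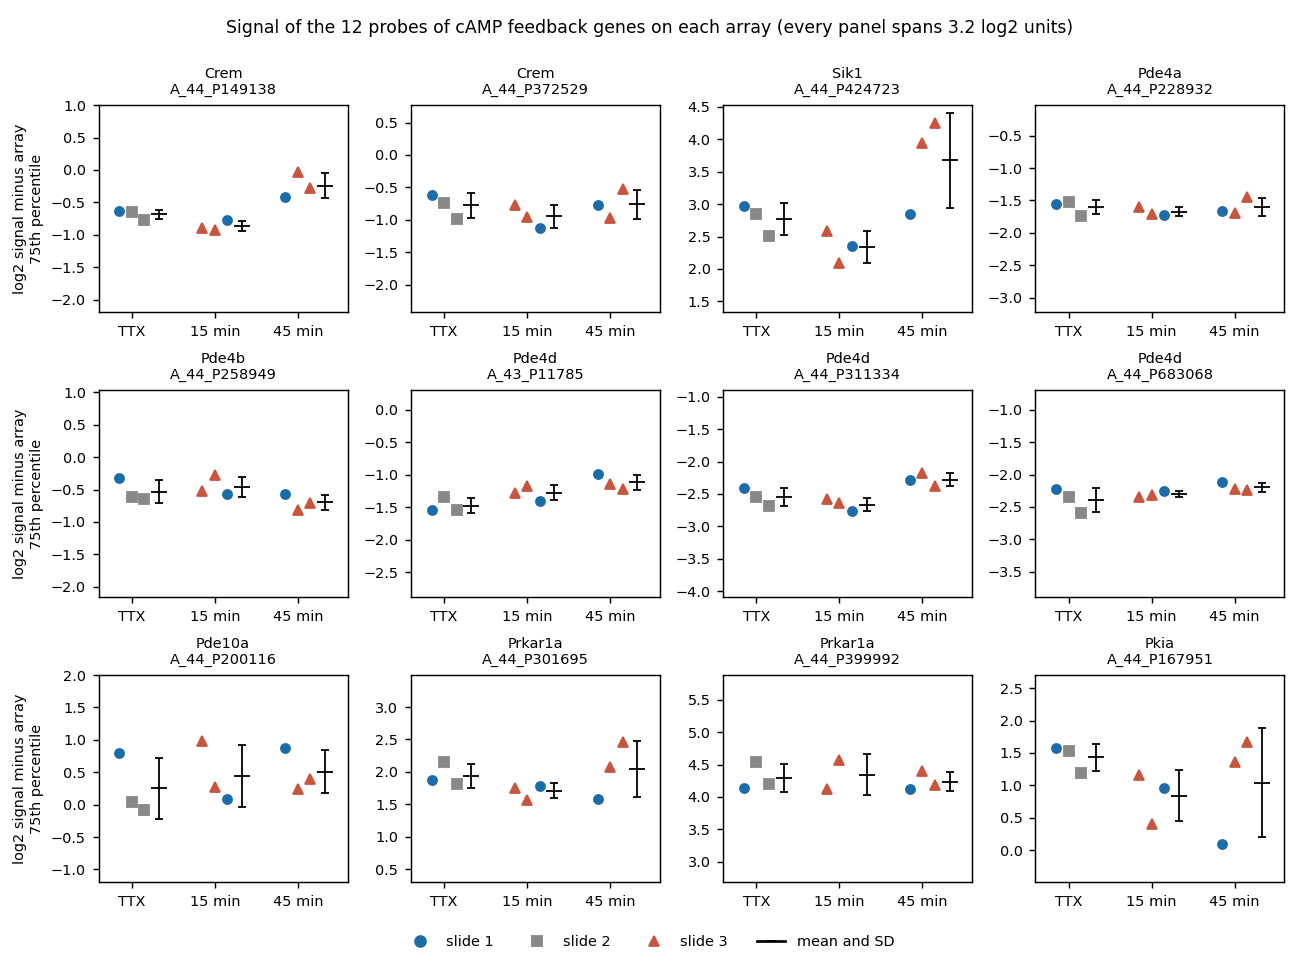
Log2 signal minus the 75th percentile of the array for each of the 12 probes, 1 point per array, in TTX and 15 and 45 min after washout; symbols mark the slide and bars the mean and SD. The Crem probe A_44_P149138 lies higher at 45 min on all 3 arrays, whereas Sik1 is high on the 2 slide 3 arrays at 45 min and within the TTX range on the slide 1 array.

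The 2 Crem probes gave different fold changes at 45 min, a contrast that did not pass in the exact test given below. With A_44_P149138 the log2 signals were -0.64, -0.65 and -0.77 in TTX (replicates 1 to 3), -0.89, -0.93 and -0.77 at 15 min, and -0.41, -0.04 and -0.27 at 45 min. All 3 arrays at 45 min lay above all arrays of both other groups, which overlapped each other. The group means were -0.69 ± 0.08, -0.86 ± 0.08 and -0.24 ± 0.19 (SD, n = 3). At 45 min the probe was 1.36-fold above TTX, a log2 difference of 0.45 ± 0.13 (SE) with a 95% interval from 0.14 to 0.75, which did not pass limma's adjustment (adjusted p = 0.600, unadjusted p = 0.00857). Without scaling between arrays that difference was 0.18 (unadjusted p = 0.363 in limma). The median of all probes in this comparison was -0.22 without scaling and 0.05 with it. Within slide 1 the scaled Crem difference was 0.23. Against 15 min the difference was 0.62 ± 0.13, or 1.54-fold (limma's adjusted p = 0.295, unadjusted p = 0.00114). Arrays of the higher group lay entirely above the other for 8.35% of all probes at 45 min against TTX and for 4.03% at 45 against 15 min.

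The other Crem probe, A_44_P372529, gave -0.61, -0.74 and -0.99 in TTX, -0.77, -0.95 and -1.12 at 15 min, and -0.77, -0.97 and -0.53 at 45 min. Its groups overlapped throughout. The difference at 45 min against TTX was 0.02 ± 0.17, with an interval from -0.36 to 0.40 and limma's adjusted p = 0.992. The signal of the first probe minus that of the second lay between -0.03 and 0.21 on the TTX arrays and between 0.26 and 0.94 on the 45 min arrays, without overlap. That change, 0.43, had p = 0.1 in a two-sided exact permutation test of 3 against 3 arrays, the smallest p this design allows, and 0.24 after adjustment over the 12 such tests made. On the 15 min arrays the first probe minus the second lay between -0.12 and 0.35, which overlapped the 45 min range. The change from 15 to 45 min, also 0.43, had p = 0.2 in the same permutation test and 0.343 after adjustment. As a mean of both probes, Crem differed from TTX at 45 min by 0.23 (limma's adjusted p = 0.805).

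Sik1 had the largest fitted difference at 45 min of the 12 probes, with arrays at 45 min that spread widely. Its log2 signals were 2.97, 2.84 and 2.50 in TTX, 2.59, 2.09 and 2.35 at 15 min, and 2.85, 3.94 and 4.25 at 45 min. Replicates 2 and 3 at 45 min lay above every other array, whereas replicate 1 at 45 min lay within the TTX range and above all 3 arrays at 15 min. The 45 min mean was 3.68 ± 0.73, against 2.77 ± 0.24 in TTX and 2.34 ± 0.25 at 15 min (SD, n = 3). The difference from TTX was 0.91 ± 0.33 (SE), or 1.88-fold with a 95% interval from 1.13-fold to 3.12-fold, and it did not pass (limma's adjusted p = 0.705, unadjusted p = 0.0207). Against 15 min it was 1.34 ± 0.33, or 2.53-fold (limma's adjusted p = 0.431, unadjusted p = 0.00249). At 15 min the difference from TTX was -0.43 ± 0.33 with limma's adjusted p = 0.980, and with slide as a block it was -1.04 (unadjusted p = 0.0525 in limma, not called).

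The call for Sik1 depended on 1 array. Without W45 replicate 1 the difference was 1.32 ± 0.21 against TTX and 1.75 ± 0.21 against 15 min, and limma's adjusted p was 0.0377 and 0.0128. With that array as the sole one at 45 min the differences were 0.08 and 0.51, given as values with no test. W45 replicate 1 was on slide 1 with TTX replicate 1 and W15 replicate 3, W45 replicates 2 and 3 were on slide 3 with W15 replicates 1 and 2, and slide 2 held the other TTX arrays. Within slide 1, Sik1 at 45 min differed from TTX by -0.12 and from 15 min by 0.50, and within slide 3 it differed from 15 min by 1.75 (limma's adjusted p = 0.271). With slide as a block the difference from TTX was 0.30 (the adjusted p in limma rounded to 1), and that fit rests on TTX replicate 1 as the reference. Comparisons with TTX are thus partly confounded with slide, whereas 45 and 15 min are balanced over slides 1 and 3.

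Among the 13 rapid CREB targets examined, W45 replicate 1 lay above the TTX mean for 13, was the highest of the 3 arrays at 45 min for 6 and the lowest for 2, Per1 and Fosb. Its log2 signal exceeded the TTX mean by 6.97 for Fos, the AP-1 factor, where replicates 2 and 3 exceeded it by 6.84 and 6.02, and by 4.14 for Nr4a1, an orphan nuclear receptor, where they exceeded it by 4.40 and 4.07. For Per1, singled out after its values were seen, a clock gene with CREB-bound promoter elements, the 3 arrays exceeded it by 0.20, 0.77 and 1.33. Per1, alone of the 13, thus ran in the same order over these arrays as Sik1, whose differences were 0.08, 1.17 and 1.47. Among the 12 member probes, W45 replicate 1 was the lowest of the 3 for 5 and the highest for 4. Why Sik1 was low on this array was not tested.

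**Figure D2:**
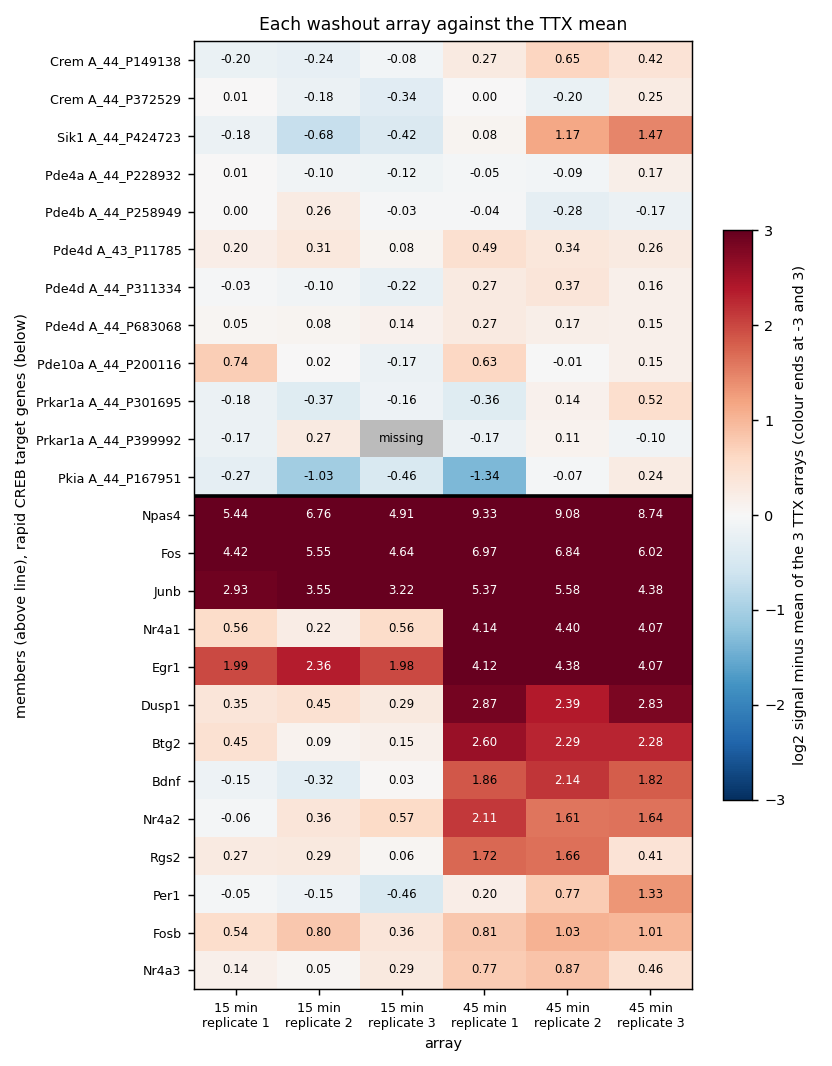
Log2 signal of each washout array minus the mean of the 3 TTX arrays, for the 12 member probes above the black line and the 13 rapid CREB target genes below it; the colour scale ends at -3 and 3 and the printed numbers are the values. W45 replicate 1 shows 0.08 for Sik1 and 6.97 for Fos, and Npas4 is measured from TTX arrays on which it was not well above background.

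None of the member phosphodiesterases was called in any comparison. Pde4d had 3 probes. A_43_P11785 gave -1.54, -1.35 and -1.55 in TTX, -1.28, -1.17 and -1.40 at 15 min, and -0.99, -1.14 and -1.22 at 45 min. The 45 min arrays did not overlap the TTX arrays, and those at 15 min lay between, overlapping both. The difference from TTX at 45 min was 0.36 ± 0.13 (SE), with an interval from 0.07 to 0.65 (limma's adjusted p = 0.705, unadjusted p = 0.0205).

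The Pde4d probe A_44_P311334 gave -2.40, -2.54 and -2.69 in TTX, -2.58, -2.64 and -2.77 at 15 min, and -2.28, -2.17 and -2.38 at 45 min. The 45 min arrays lay above all others with this probe. Its difference was 0.27 ± 0.13 from TTX (limma's adjusted p = 0.776) and 0.39 ± 0.13 from 15 min (limma's adjusted p = 0.723, unadjusted p = 0.0155). The last probe, A_44_P683068, gave -2.23, -2.35 and -2.60 in TTX, -2.34, -2.31 and -2.25 at 15 min, and -2.12, -2.22 and -2.24 at 45 min. Its 45 min arrays overlapped those in TTX and lay just above those at 15 min, with a difference of 0.19 ± 0.13 from TTX (limma's adjusted p = 0.845). Each of the 3 probes had its highest mean at 45 min, and the mean of the 3 differed from TTX by 0.27 (limma's adjusted p = 0.786).

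Pde4b, another cAMP-specific enzyme, gave -0.33, -0.62 and -0.65 in TTX, -0.53, -0.28 and -0.56 at 15 min, and -0.57, -0.81 and -0.71 at 45 min. The arrays at 45 min lay below all arrays at 15 min, as they did for 4.02% of all probes, and overlapped those in TTX. The differences were -0.24 ± 0.15 from 15 min (limma's adjusted p = 0.807) and -0.16 ± 0.15 from TTX (limma's adjusted p = 0.895). Pde4b and Pde4d were thus on opposite sides of 0 at 45 min, neither past the threshold, and the difference between the genes was not tested.

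Pde4a ranged only from -1.73 to -1.44 over the 9 arrays, and its groups overlapped in every comparison. It differed by 0.01 ± 0.13 between 45 min and TTX, with an interval from 0.83-fold to 1.23-fold, and by -0.07 ± 0.13 between 15 min and TTX. A change of the size fitted for Sik1 lies outside that interval.

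Pde10a varied with the replicate number more than with the group. It gave 0.79, 0.04 and -0.08 in TTX, 0.99, 0.27 and 0.08 at 15 min, and 0.88, 0.25 and 0.40 at 45 min. Replicate 1 was the highest in 3 of 3 groups, at 0.79 to 0.99, while the other arrays lay between -0.08 and 0.40. The difference at 45 min against TTX was 0.26 ± 0.30 (limma's adjusted p = 0.925), and when the fit included a replicate block its SE fell to 0.13 (limma's adjusted p = 0.641). With slide as a block the difference from TTX turned to -0.28 at 45 min, and at 15 min from 0.19 to -0.34, none of them called. That fit rests on TTX replicate 1 as the reference, the highest TTX array for Pde10a at 0.79. Of 5 markers of striatal projection neurons, the cells in which Pde10a is most abundant, the adenosine receptor gene Adora2a was also highest on replicate 1 in 3 of 3 groups. Ppp1r1b and Rgs9 were so in 1 of 3 groups and the dopamine receptor genes Drd1 and Drd2 in 0 of 3. The summed linear signal of the 5 markers, in units of the array's 75th percentile, was 1.09 to 1.17 in TTX, 1.03 to 1.21 at 15 min and 0.965 to 1.08 at 45 min. The part of such cells in the Pde10a values was not tested.

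**Figure D3:**
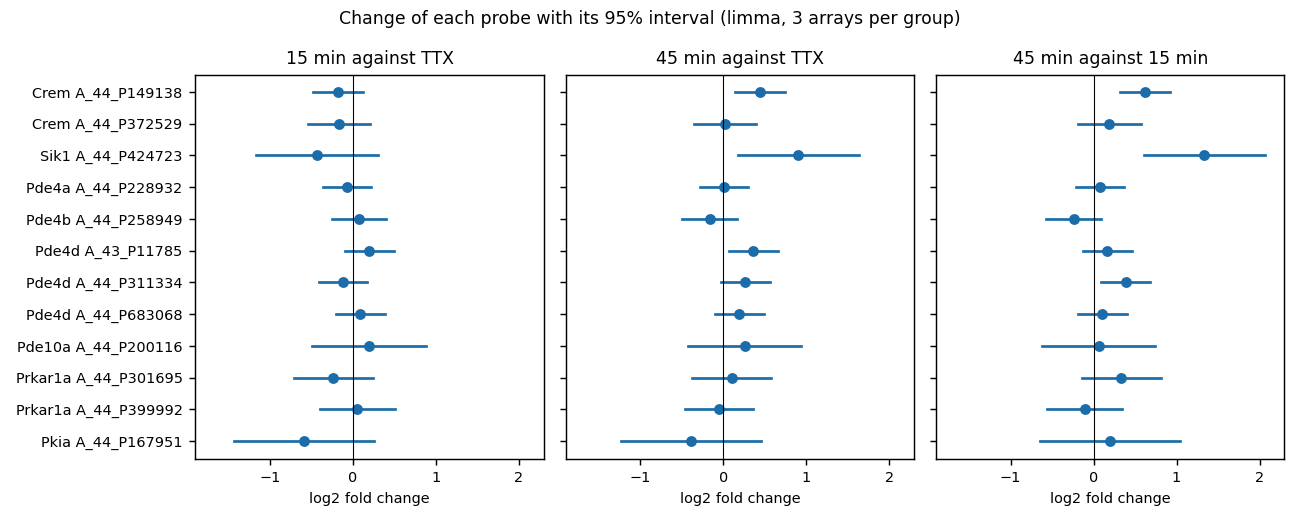
Log2 fold change of each of the 12 probes (points) with limma's 95% interval (lines) for 15 min against TTX, 45 min against TTX and 45 against 15 min, 3 arrays per group. The intervals of Sik1 and of Crem A_44_P149138 lie above 0 in both comparisons of 45 min, before adjustment over all probes, and those at 15 min all cross 0.

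Of the member genes that restrain protein kinase A, Pkia was lower on every 15 min array than on any TTX array. Prkar1a was so with only 1 of its probes, and neither gene was called. Of such genes outside the members, the regulatory subunit Prkar1b was at 0.36 at 15 min against TTX. Prkar2a, Prkar2b, Pkib and Pkig were at -0.19, -0.17, -0.14 and -0.17, and none of these was called. Pkia gave 1.57, 1.53 and 1.19 in TTX, 1.16, 0.40 and 0.97 at 15 min, and 0.09, 1.36 and 1.67 at 45 min. The 15 min arrays lay below the TTX arrays, as they did for 4.29% of all probes, by only a small margin at the nearest pair. The difference was -0.59 ± 0.38 (SE, limma's adjusted p = 0.980). At 45 min the arrays spread from 0.09 to 1.67, wider than both other groups together, and the difference from TTX was -0.39 ± 0.38 (limma's adjusted p = 0.902). Without W45 replicate 1, the lowest array, it was 0.09. With slide as a block the Pkia differences from TTX were -1.14 at 15 min and -0.94 at 45 min, neither called by limma. That fit likewise rests on TTX replicate 1 as the reference, the highest TTX array for Pkia at 1.57.

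Prkar1a probe A_44_P301695 gave 1.87, 2.15 and 1.81 in TTX, 1.76, 1.57 and 1.79 at 15 min, and 1.59, 2.08 and 2.46 at 45 min. The 15 min arrays lay below the TTX arrays, with the nearest pair almost level, and the difference was -0.24 ± 0.21 (limma's adjusted p = 0.980). At 45 min the arrays overlapped both other groups, and the difference from 15 min was 0.34 ± 0.21 (limma's adjusted p = 0.815). The brighter probe, A_44_P399992, gave 4.14, 4.54 and 4.20 in TTX, 4.12 and 4.56 on the 2 usable arrays at 15 min, and 4.12, 4.40 and 4.19 at 45 min. Its spot on W15 replicate 3 carried an outlier mark and was left out. This probe differed by 0.05 ± 0.20 at 15 min and by -0.05 ± 0.18 at 45 min against TTX, so that the lower 15 min values of the other Prkar1a probe were not seen with it.

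The rest of the pathway was taken from 6 lists: cAMP synthesis, other phosphodiesterases, other subunits and inhibitors of protein kinase A, A-kinase anchoring proteins, the CREB family with its coactivators, and other cAMP sensors. Of their 58 genes 54 were on the array and 49 passed the filter on dim probes. Limma called 0 of the 49 in any comparison, and at an unadjusted p under 0.05 at 45 min against TTX 1 was higher and 3 were lower, where 3.69% of all probes were higher and 2.8% lower. The medians of the lists at 45 min lay between -0.05, for the other sensors, and 0.13, for the CREB family, beside 0.05 for all probes. The higher gene was Akap12, a scaffold for protein kinase A, at 0.35 (limma's adjusted p = 0.768). The lower genes were Atf1, a close relative of CREB, at -0.66, Gnai2, an inhibitory G protein subunit that lowers cAMP synthesis, at -0.65, each with limma's adjusted p = 0.242, and Rapgef4, a cAMP-activated exchange factor, at -0.44 (limma's adjusted p = 0.655).

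The other genes with the largest differences in their lists at 45 min against TTX were not called by limma. Among enzymes that make or degrade cAMP, Pde3b, a cGMP-inhibited phosphodiesterase, was at -0.63 with limma's adjusted p = 0.775, Pde7a at 0.20, Pde1c at 0.18, and the adenylyl cyclases Adcy5 and Adcy7 at 0.24 and 0.16. Among the protein kinase A genes the regulatory subunits Prkar2a and Prkar1b were at -0.31 and 0.16, the inhibitor Pkig at 0.15, and the anchoring proteins Akap5 and Akap6 at -0.23 and 0.22. The kinase Sik2 was at 0.22, the coactivator Crtc3 at 0.21, and the cyclic nucleotide-gated channel Hcn2 at 0.25. The largest of these fell short of the 0.91 fitted for Sik1.

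Rapid CREB targets, taken as a list, rose in the same samples. The list was chosen with earlier results of these data known, so its counts are a description and not an independent test. Of 13 genes, 4 were called higher at 15 min against TTX, 9 at 45 min and 7 at 45 against 15 min, none lower, where 0.0198%, 0.175% and 0.119% of all probes were called higher. Their median log2 fold change at 45 min was 2.39. The counts and this median include Npas4, which passed the filter on dim probes only through the washout groups, where it was high. The 4 at 15 min were Fos, at 4.87, Junb, at 3.23, Egr1, at 2.11, and Npas4, which was not well above background on any TTX array and so has no fold here. At 45 min Nr4a1, at 4.20, Dusp1, at 2.69, Btg2, at 2.39, the growth factor gene Bdnf, at 1.94, and Nr4a2, at 1.79, were called as well. Nr4a3 was called on another of its 3 probes. With its brightest probe it was at 0.70, and Fosb was at 0.95 (each limma's adjusted p = 0.217), Rgs2 at 1.26 (limma's adjusted p = 0.390) and Per1 at 0.77 (limma's adjusted p = 0.650). The values of Sik1 and of the higher Crem probe, 0.91 and 0.45, lay within or below those of these uncalled targets.

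**Figure D4:**
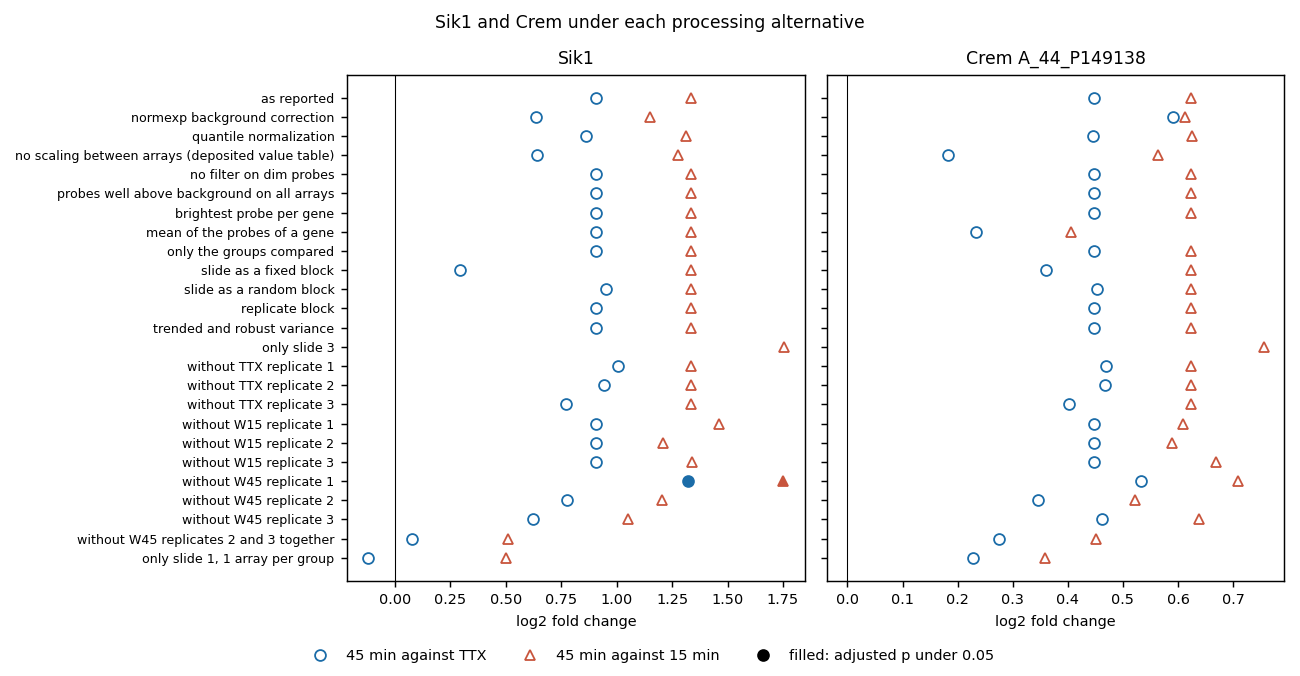
Log2 fold change of Sik1 (left) and of Crem probe A_44_P149138 (right) at 45 min against TTX (circles) and against 15 min (triangles) under each way of processing the arrays; the axes of the panels differ. Filled symbols, which mark an adjusted p under 0.05, occur only for Sik1 without W45 replicate 1, at 1.32 and 1.75, and the values of this Crem probe stay above 0 throughout. In the setting that averages the probes of a gene, the right panel shows the mean of both Crem probes, 0.23 against TTX and 0.41 against 15 min. The other Crem probe, not shown alone, ran from -0.24 to 0.13 at 45 min against TTX over the alternatives.

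Genes whose signal followed the brighter Crem probe and Sik1 over the 9 arrays were sought among 16103 probes with a RefSeq name. The nearest to Crem A_44_P149138 were Drd1, a dopamine receptor gene (Pearson's r = 0.974), Klf6, a zinc-finger factor (0.960), and Npy1r, a neuropeptide Y receptor gene (0.954). The nearest to Sik1 were Cebpb, a leucine-zipper transcription factor (0.983), Amd1, an enzyme of polyamine synthesis (0.974), and Clk1, a kinase of splicing factors (0.974). These correlations are descriptions, chosen as the highest of many, over arrays that share slides and group differences. None of the 6 genes was itself called at 45 min against TTX, where their log2 fold changes lay between Clk1 at 0.32 and Drd1 at 0.67.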

How the data were processed

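The 9 arrays, 3 per group, were Agilent rat arrays (design 014879) on which cRNA labelled with Cy3, prepared from 500 ng total RNA per the labels' protocols, was hybridised. Per the file headers, the deposited scanner files hold spot intensities from Feature Extraction 9.5.3.1 run with protocol GE1-v5_95_Feb07 (the submitters' processing notes give the tool as 9.5), and the software had already subtracted background and detrended each array in the processed signal. The same intensity values fill the deposited matrix of the series (largest difference 0).

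The 1639 control spots of the 45018 per array were left out, outlier-marked spots (49 to 111 per array) were set missing, and 263 probes printed in 10 spots were averaged. From the deposited intensities, log2 minus the array's 75th percentile (taken over probe spots) was computed. Probes were kept if all arrays of some group showed them well above background and at most 1 array lacked a value, which left 30321. Probes were named by accession (10735), symbol (5571) or synonym (3729) through RefSeq's GRCr8 gene list, and 20977 kept the name in the files. The number of arrays limits the precision.

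All 9 arrays were fitted with limma (version 3.58.1) under R 4.3.3, using group means without covariates, 6 residual degrees of freedom and a threshold of 0.05 on the adjusted p. The fit was tested on simulated data. Figures used matplotlib 3.10.9 in Python 3.11.15. The members and gene lists were chosen with earlier results of these data known. By rule every member probe is named, with list genes called in any comparison, up to 3 further genes per list with the largest change of their brightest probe at 45 min, and the 3 genes most correlated with the brightest probe of Crem and of Sik1.

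Slides were read from the array barcodes. Same-numbered arrays deviated together between TTX and 15 min (correlations of 0.22 to 0.38 for the 3 pairs). Of all 9 same-numbered pairs 7 exceeded 0.1, and the lowest was 0.06. The numbers may thus pair the arrays, which the labels do not state. The SEs, intervals and p values above ignore such a pairing unless a replicate block is named. The fit with the replicate number as a block was run as an alternative. Other alternatives changed the background correction, scaling, probe filter, choice of probe, variance model and slide term, or left out arrays. No protein sequence was used here, and some genes of the lists are not reported here.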

Additional observations from a re-analysis of the deposited data

How the results depend on the processing

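The count of member probes called was 0 in all 22 alternatives at 15 min against TTX. At 45 min, against TTX and against 15 min, it ranged from 0 to 1 when single replicates were left out, the 1 being Sik1 without W45 replicate 1, and it was 0 under every other alternative. Of 814 member values under alternatives, 748 were counted as unchanged and 2 passed the threshold. The other 64 changed sign or moved by more than the spread between replicates, without being called. Unchanged meant the same sign and the same side of the threshold. For values within slide 1, which have no test, it meant only a move smaller than that spread. Some of these changed sign, such as Pde4a at 45 min against TTX, from 0.01 to -0.10. The replicate block changed no member call: Sik1 kept its log2 difference of 0.91 from TTX at 45 min, with limma's adjusted p = 0.578. Every array correlated best with its own number in each other group (18 of 18). A model-based background correction (normexp, offset 50) moved the median of all probes from 0.05, 0.05 and 0.01 to 0.20, 0.11 and -0.19 in the 3 comparisons, and no scaling between arrays moved it to -0.16, -0.22 and -0.05. Sik1 at 45 min then differed from TTX by 0.64 under both. Leaving out W45 replicates 2 and 3 together was chosen after seeing the data.

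Over the whole array, probes called at 15 min against TTX numbered 6 higher and 0 lower, with ranges of 0 to 10 and 0 to 3 over the alternatives. At 45 min against TTX they numbered 53 and 7, with ranges of 21 to 80 and 1 to 120, and at 45 against 15 min 36 and 3, with ranges of 16 to 72 and 0 to 159. The highest counts at 45 min came without W45 replicate 1. The 4 arrays of slide 3 alone gave 0 calls in either direction between 45 and 15 min, with 3 member probes at an unadjusted p under 0.05 in limma. The cause of these changes was not tested.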
